A study of Mus musculus with 24 samples.

Results

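The 38 genes described here are mouse genes whose annotated bodies stretch over 333 to 2271 kb of genome, followed in brite adipocytes after a gapmer knockdown. They were chosen by name as genes of about 300 kb or more, and the names were drawn up after earlier results of these libraries were known, in which Magi1 at 24 h and Immp2l at 72 h already stood among the larger decreases. The knockdown values of the listed genes are therefore a description of a chosen list. Each gene was represented by 1 of its entries in the deposited table, the RefSeq mRNA with the highest mean RPKM over the 24 libraries, where RPKM is the number of reads scaled to the length of the transcript and to the mapped reads of the library. The 38 genes stand among 25438 genes with an annotated span, of which 574 reach 300 kb, so 536 other long genes were not on the list.

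The cells were primary brite adipocytes, white fat cells that acquire the heat-producing programme of brown fat, obtained by differentiating stromal vascular cells of the inguinal depot of 129SvEv mice a few weeks old with rosiglitazone in every group. They received 50 nM of an LNA gapmer, a chemically stabilised antisense oligonucleotide that recruits RNase H to its target, directed at the long noncoding RNA Ctcflos (group KD), or 50 nM of a nontargeting gapmer (group NC). RNA was collected 24 h or 72 h after transfection, so that 4 groups of 6 libraries each resulted. The study's captions call replicates of this transcriptome biological, but the labels do not tie libraries to separate mice or cultures, so p-values measure the spread between these libraries, part of which may be technical.

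A very long gene consists almost entirely of introns. RNA polymerase II needs hours to cross it, the introns are spliced out while transcription is still under way, and U1 snRNP, topoisomerases and elongation factors are known to be needed for the polymerase to reach the far end. Long genes are frequent among genes for adhesion, cell polarity, signalling and transcriptional control, and several of them lie at common fragile sites.

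In the annotation (GENCODE M21, build GRCm38), the listed genes had a median span of 688 kb, against 15.1 kb over all genes. In the coding transcript covering most of each gene, the longest intron measured between 61.2 and 639 kb with a median of 193 kb, and it reached 100 kb in 35 of the 38 genes. Exons made up a median of 0.808% of the span. Next above the 300 kb limit lay Msra with 333 kb, Tcf4 with 346 kb and Fto with 355 kb. The entries that stood for the genes were 775 to 14856 bases long, with a median of 6581 bases. Most of the genes were expressed at a low level, from 0.0689 to 39.9 RPKM averaged over all libraries, or 1.38 to 410 reads per library (median 21.7), so that depth limits what can be said of many of them.

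Promoters are shown for 4 genes on which the results turn, 3 that fell strongly and Foxp1, which did not. They are RefSeq sequences of build GRCm38.p6, each from 250 bases before to 50 bases after an annotated start and written along the gene's own strand, and capitals mark a GC box, GGGCGG or its complement CCGCCC. Immp2l is at chr12:41023840-41024139 on the plus strand, Magi1 at chr6:93913641-93913940 on the minus strand, Zbtb20 at chr16:43247034-43247333 on the plus strand and Foxp1 at chr6:99520944-99521243 on the minus strand. The Immp2l window ends 50 bases into the annotated gene, while those of Magi1, Zbtb20 and Foxp1 surround starts that lie within the annotated span, downstream of its outermost start.
Immp2l: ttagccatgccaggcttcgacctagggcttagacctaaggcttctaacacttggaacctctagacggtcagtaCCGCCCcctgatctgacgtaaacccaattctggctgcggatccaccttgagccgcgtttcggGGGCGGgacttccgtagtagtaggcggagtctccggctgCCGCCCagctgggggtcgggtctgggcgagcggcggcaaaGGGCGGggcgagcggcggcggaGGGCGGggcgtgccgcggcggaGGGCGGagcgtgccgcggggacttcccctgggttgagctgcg
Magi1: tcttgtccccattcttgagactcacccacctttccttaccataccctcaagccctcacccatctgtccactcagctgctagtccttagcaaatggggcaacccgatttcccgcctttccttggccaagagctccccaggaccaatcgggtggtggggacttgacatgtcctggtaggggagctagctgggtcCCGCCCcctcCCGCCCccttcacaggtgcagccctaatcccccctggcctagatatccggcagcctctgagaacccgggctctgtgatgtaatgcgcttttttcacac
Zbtb20: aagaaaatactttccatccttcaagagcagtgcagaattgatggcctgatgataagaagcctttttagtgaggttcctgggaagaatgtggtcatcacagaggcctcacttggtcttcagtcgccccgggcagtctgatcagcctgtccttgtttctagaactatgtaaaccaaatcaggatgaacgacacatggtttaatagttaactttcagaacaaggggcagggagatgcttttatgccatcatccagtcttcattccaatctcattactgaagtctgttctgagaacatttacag
Foxp1: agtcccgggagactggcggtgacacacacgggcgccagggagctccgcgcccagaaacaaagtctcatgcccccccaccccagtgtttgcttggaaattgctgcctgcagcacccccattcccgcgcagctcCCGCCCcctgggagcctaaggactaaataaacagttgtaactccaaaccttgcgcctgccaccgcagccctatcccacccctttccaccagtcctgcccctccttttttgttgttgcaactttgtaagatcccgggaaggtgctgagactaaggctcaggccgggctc
The Immp2l window holds 6 GC boxes, that of Magi1 holds 2, that of Foxp1 holds 1 and that of Zbtb20 holds none. For 28 listed genes a promoter was matched by symbol and read. A GC box was present in 13 of these 28 windows (46.4%) and in 9708 of 27025 windows over all genes (35.9%). The letters TATAAA, searched on the gene's strand and its complement, were present in 2 of the 28 windows (7.14%) and in 14.2% of all windows. The listed windows were richer in G and C, with a median of 60.7% against 52.7% over all genes, but ranged from 39.7% to 80.7%. A match of letters is a description of the window and says nothing about a factor bound there.

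The target site of the gapmer that the study's methods give for Ctcflos transcript 1 is shown next, to set it beside the sequences of the listed transcripts. The study also used a gapmer against Ctcflos transcripts 3 and 4 for its transcriptome. The paper says that its later transcriptome work centred on transcript 1, and its sets of changed genes at 24 h and 72 h are for the transcript 1 gapmer. The labels do not say which gapmer was used in these libraries. The site lies in exon 3 of the 3 exons of the noncoding Ctcflos transcript ENSMUST00000144256, at chr2:173114615-173114630 on the plus strand of GRCm38, and is written 5′ to 3′.
target site: aatcctccacccaagc
Over the annotated exonic sequence of the 38 genes, the longest uninterrupted match to this 16-base site was 11 bases, in Atxn1 and Tbc1d5, and the shortest was 7. A match of 10 or more bases was found in 6 of the 38 genes (15.8%) and in 1147 of 25438 genes over the annotation (4.51%), and longer transcripts offer more positions at which one can occur. A match of 12 or more bases was found in 0 of the 38 genes and in 63 of all genes (0.248%). Introns were not searched.

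Between 1391832 and 5423840 mapped reads per library were recovered from the steps of the RPKM values, with a median of 3945867. The lowest number was that of KD 24 h replicate 6, the library that also held the 0 values of Zbtb20, Pard3 and Sox5 at 24 h. NC 72 h replicates 2 and 3 differed by less than the sampling noise, were averaged and were counted as 1 sample, which leaves n = 5 for NC 72 h. Ctcflos (symbol 1300015D01Rik) has 6 entries, of which the study assigns AK041254 to transcript 1 and AK079954, the most abundant, to transcript 3. AK079954 lay between 0 and 0.831 RPKM in KD 24 h against 0.674 to 2.87 in NC 24 h, which overlap, and between 0 and 0.979 in KD 72 h against 1.48 to 3.86 in NC 72 h, which do not. AK041254 lay between 0 and 1.03 in KD 24 h (median 0.0874) against 0.171 to 0.848 in NC 24 h (median 0.418), and between 0 and 0.529 in KD 72 h (median 0) against 0.119 to 2.48 in NC 72 h (median 1.55), with overlap at both times. Both entries were too low for the fit across genes. The 6 adipocyte markers summed to 36209 to 54541 RPKM in KD 24 h and 47709 to 51175 in NC 24 h, with Adipoq and Pparg lower, and to 28206 to 41659 in KD 72 h and 34504 to 44290 in NC 72 h, with Adipoq, Fabp4 and Lpl lower. Most of each sum was Fabp4, with means of 39915 RPKM in KD 24 h and 42996 in NC 24 h. Of the macrophage markers, Csf1r was higher at both times (log2 fold changes of 1.22 and 1.23) and Lyz2 was lower at 72 h (-3.68), and the list of 6 summed to 3.15 to 19.1 RPKM in KD 24 h, 6.00 to 27.9 in NC 24 h, 7.28 to 15.3 in KD 72 h and 9.34 to 29.8 in NC 72 h. Of the preadipocyte markers, 0 of 4 tested passed at 24 h. At 72 h Cd34 was higher (2.02, from a mean of 0.39 RPKM in NC to 2.01 in KD), while Pdgfra (-0.30) and Ly6a (0.27) did not pass. The list of 6 summed to 346 to 809 in KD 24 h, 379 to 959 in NC 24 h, 748 to 891 in KD 72 h and 319 to 897 in NC 72 h. Most of each sum was Ly6a, with means of 614 RPKM in KD 24 h and 825 in KD 72 h. Of the smooth muscle and pericyte markers, Tagln was lower (-0.76) and Pdgfrb higher (0.59) at 72 h, and the list of 5 summed to 215 to 809 in KD 24 h, 496 to 1400 in NC 24 h, 313 to 473 in KD 72 h and 346 to 1058 in NC 72 h. Of 4 Schwann cell markers S100b was tested and was lower at both times (-0.88 and -1.74), and the list summed to at most 4.74 RPKM in KD and 9.45 in NC. The 5 endothelial markers, none of them tested, stayed at or under 3.31 RPKM in sum. Of the 6 mesothelial and epithelial markers Krt19 alone was tested, and it was higher in KD by 1.06 at 24 h and 2.54 at 72 h on the log2 scale. That list summed to 22.9 to 75.7 RPKM in KD 24 h against 17.9 to 25.2 in NC 24 h and to 119 to 171 in KD 72 h against 17.8 to 26.0 in NC 72 h, with Upk3b at 0 throughout. At 72 h mean RPKM was 0.922 in KD and 0 in NC for Msln, 0.231 and 0 for Krt8, 0.370 and 0.136 for Krt18 and 0 in both for Epcam. In bulk RNA, fewer cells of a type and less RNA per cell cannot be told apart. The part of these shifts in the results on long genes was not tested.

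The comparison of KD with NC at 24 h asks which transcripts differed early after transfection with the Ctcflos gapmer. Among the listed genes that passed the filter on low values, those for junctions and polarity (Magi1, Pard3), transcriptional repression (Zbtb20, Atxn1), RNA binding (Rbms3), Rac activation (Dock1) and the cytoskeleton (Nav2) were lower in KD by more than the others. The fit took in 28 of the 38 genes, of which 23 were lower in KD and 0 were higher at an adjusted p under 0.05 (limma, Benjamini-Hochberg over all entries, two-sided). Over all genes tested, 12.3% were lower and 11.7% were higher. At an unadjusted p under 0.05, 24 of the 28 passed, each with a negative fold change, against 3763 of all 9700 genes tested in either direction. Voom on recovered reads called 0 higher as well. The median log2 fold change of the listed genes was -1.34, against 0.003 over all 9700 genes tested and 0.04 over 4653 genes of similar RPKM under 300 kb, of which 9.48% were lower. In 17 of the 28 genes every KD library lay below every NC library, as it did in 7.18% of all genes tested. Of the 28 genes, 8 (Immp2l, Wwox, Dmd, Auts2, Sox5, Pard3, Nav2 and Smyd3) passed the filter in fewer than 3 of the 6 KD libraries and so entered mainly through NC. Sox5 and Pard3 reached the limit in 0 of 6 KD and 6 of 6 NC libraries, so the filter itself fixed their place among the 17. In a further 11 genes every KD library was above the filter limit, and 9 of these were lower in KD.

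The comparison at 72 h used other KD and other NC libraries, so that it shares no control with the first. The strongest decreases were then in Wwox and Immp2l, genes for a tumour suppressor oxidoreductase and a mitochondrial peptidase, and in Rbms3, Gpc6 and Magi1. The fit took in 29 of the 38 genes, of which 22 were lower in KD and 0 were higher (limma, adjusted as above), whereas 12.5% of all genes tested were lower and 11.1% were higher. At an unadjusted p under 0.05, 24 passed, each with a negative fold change, against 3689 of all 10145 genes tested in either direction. Voom called 0 of the listed genes higher. The median log2 fold change was -1.20, against 0.02 over all 10145 genes tested and 0.06 over 5082 genes of similar RPKM under 300 kb, of which 7.42% were lower. Every KD library lay below every NC library in 18 of the 29 genes, against 8.42% of all genes tested. Of the 29 genes, 4 (Wwox, Immp2l, Sox5 and Vps13b) passed the filter in fewer than 3 of the 6 KD libraries and entered mainly through NC. Wwox and Sox5 reached the limit in 0 of 6 KD libraries and 5 of 5 NC samples, so the filter itself fixed their place among the 18. In 15 genes every KD library was above the limit, and 12 of these were lower. Of the 28 genes fitted at both times, 20 were lower at both, 3 at 24 h and not at 72 h, and 2 at 72 h and not at 24 h.

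All 38 genes can be read without a filter on the deposited RPKM. Mean RPKM was lower in KD for 34 of the 38 at 24 h, as it was for 44.3% of 16908 genes above 0, and for 33 of the 38 at 72 h, as it was for 31.5% of 17060 genes. Summed over the 38 entries, 8374 reads were counted in KD and 20839 in NC at 24 h, and 10158 in KD and 19616 in NC at 72 h. Read sums at 72 h cover 6 KD libraries and 6 NC libraries, with the averaged NC replicates each counted. The libraries differ in depth, so the sums show how many reads lie behind a value and are not levels.

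**Figure D1:**
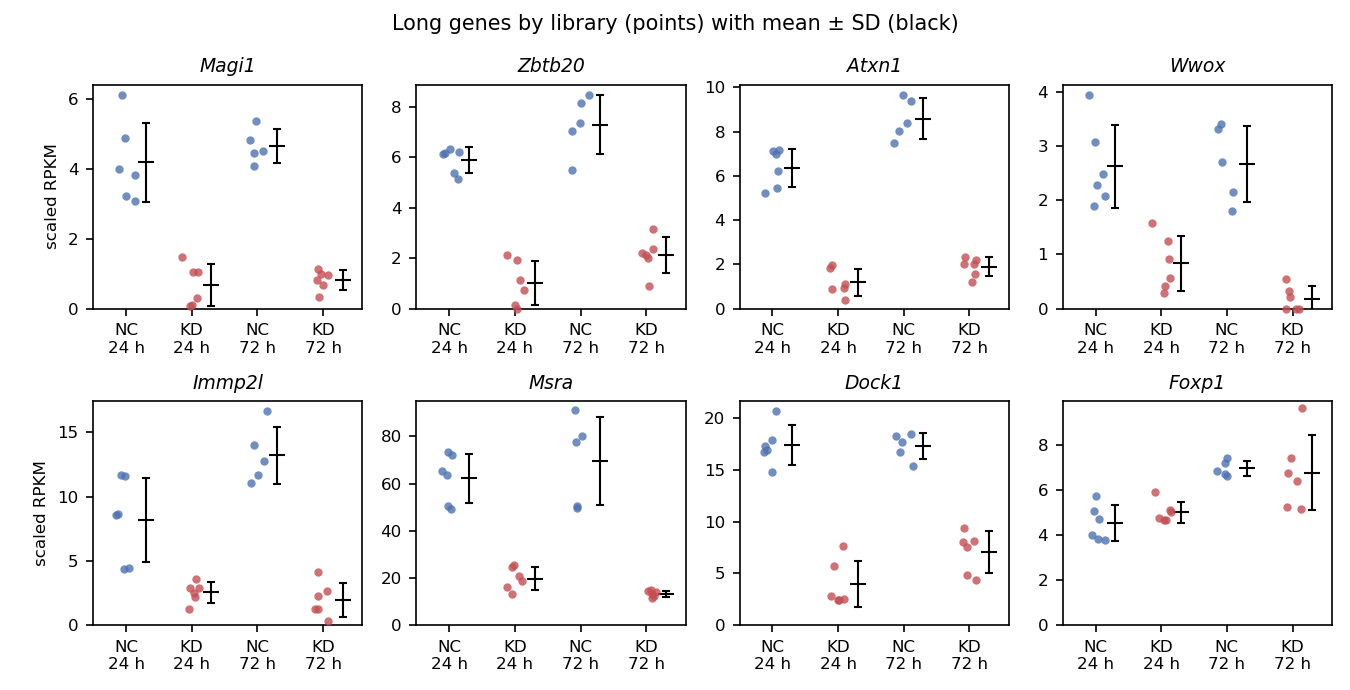
Scaled RPKM (linear axis from 0) of 8 listed genes in each library, with NC in blue and KD in red and black marks for the mean ± SD (n = 6, and n = 5 for NC 72 h). All KD points lie below all NC points at both times in 7 of the panels, and in the Foxp1 panel the groups overlap at both times.

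Of the 13 genes for adhesion, junctions and matrix, 9 were fitted at each time and 7 were lower at each. Magi1 (NM_001083320, chr6:93675455-94283917, minus strand) encodes a scaffold of tight junctions. Its scaled RPKM, that is RPKM after the normalisation of the fit, ran from 0.0645 to 1.48 (median 0.676) in KD 24 h and from 3.09 to 6.12 (median 3.91) in NC 24 h. In KD 72 h it ran from 0.329 to 1.12 (median 0.883), and the 5 NC 72 h samples held 4.09, 4.50, 4.47, 5.38 and 4.84. No KD library reached an NC library at either time, and the log2 fold change was -2.93 ± 0.52 (SE, adjusted p = 0.00199) at 24 h and -2.45 ± 0.27 (adjusted p = 3.86e-05) at 72 h. Its 6 other fitted entries were all lower at both times, with log2 fold changes of -3.12 to -2.89 and of -2.57 to -2.44. Magi2, a related scaffold at synapses and slit diaphragms, went the other way in reads but was too low to be fitted, with 57 reads in KD and 19 in NC at 24 h and 45 in KD and 24 in NC at 72 h. Its deposited RPKM of 0.237 to 1.10 in KD 24 h did not overlap the 0.0316 to 0.226 in NC 24 h.

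Gpc6, a glypican that carries heparan sulphate at the cell surface, held 0.214 to 1.55 scaled RPKM (median 0.706) in KD 24 h against 2.19 to 3.54 (median 3.05) in NC 24 h. In KD 72 h it held 0.258 to 1.35 (median 0.698), against 3.45, 4.71, 4.52, 5.05 and 3.86 in NC 72 h. The groups were apart at both times, by -1.98 ± 0.34 at 24 h (adjusted p = 0.00173) and -2.47 ± 0.33 at 72 h (adjusted p = 0.000161) on the log2 scale. Lpp, a focal adhesion protein and one of the deepest entries with 410 reads per library, was lower without overlap as well, by -1.44 ± 0.26 (adjusted p = 0.00219) and -1.26 ± 0.15 (adjusted p = 6.36e-05). The polarity gene Pard3 fell at 24 h, from 0.981 to 1.59 (median 1.44) in NC to 0 to 0.414 (median 0.231) in KD, with a log2 fold change of -2.36 ± 0.38 (adjusted p = 0.000983). It reached the filter limit in 0 of 6 KD 24 h libraries, with 37 reads in all, and in 6 of 6 NC 24 h libraries, so it entered the fit through NC alone. At 72 h its KD libraries at 0.296 to 1.42 (median 0.829) overlapped the NC samples at 0.983, 1.71, 1.27, 1.11 and 1.51, and the difference of -0.78 ± 0.33 missed the threshold (adjusted p = 0.107). Its relative Pard3b was not fitted and held 10 reads in KD and 44 in NC at 24 h, and 22 in KD and 51 in NC at 72 h.

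The receptor tyrosine phosphatases gave smaller differences than Magi1. Ptprm, a homophilic adhesion receptor, stood at 0.116 to 1.51 (median 0.585) in KD 24 h against 1.08 to 2.07 (median 1.39) in NC 24 h, and at 0.260 to 0.656 (median 0.477) in KD 72 h against 2.05, 1.17, 1.28, 1.41 and 2.35 in NC 72 h. The groups overlapped at 24 h and not at 72 h, and the log2 fold changes were -1.26 ± 0.40 (adjusted p = 0.0341) and -1.62 ± 0.29 (adjusted p = 0.00141). Ptprg was lower by -0.86 ± 0.24 at 24 h (adjusted p = 0.0218) and -1.20 ± 0.39 at 72 h (adjusted p = 0.0416), with overlapping groups at both times. Its 2 other fitted entries did not pass at either time. Ptprd differed by -0.54 ± 0.28 at 24 h (adjusted p = 0.175) and was lower by -1.12 ± 0.36 at 72 h (adjusted p = 0.0361). These calls are near the threshold, since with 1 replicate number left out the adjusted p rose to as much as 0.116 for Ptprm and 0.0958 for Ptprg at 24 h, and to 0.139 for Ptprg and 0.123 for Ptprd at 72 h. Ptprk was not fitted and held 12 reads in KD and 42 in NC at 24 h and 24 in KD and 46 in NC at 72 h.

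The pair of Dmd and Utrn, which link the actin cytoskeleton to the membrane and so to the matrix, differed in its values. Utrn was at 0.935 to 1.99 scaled RPKM (median 1.33) in KD 24 h against 2.11 to 3.07 (median 2.81) in NC 24 h, and at 0.715 to 1.67 (median 1.32) in KD 72 h against 2.31, 2.44, 1.75, 2.26 and 2.49 in NC 72 h. It was lower without overlap at both times, by -0.94 ± 0.22 (adjusted p = 0.00804) and -0.83 ± 0.24 (adjusted p = 0.0234), the second with an adjusted p of up to 0.0688 when 1 replicate number was left out. Of the other entries of Utrn, 2 of 5 were lower at 24 h and 2 of 4 at 72 h. Dmd, one of the longest genes of the genome with a span of 2257 kb, stayed at or under 0.268 scaled RPKM in every library. Its log2 fold changes of -0.32 ± 0.34 at 24 h (adjusted p = 0.521) and 0.28 ± 0.38 at 72 h (adjusted p = 0.640) did not pass, and a mean of 8.71 reads per library limits what this comparison can show. Cdh13, a cadherin held by a lipid anchor, was not fitted and held 6 reads in KD and 15 in NC at 24 h, and 1 in KD and 11 in NC at 72 h.

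Among the 10 genes for transcription and RNA, 7 of 8 fitted were lower at 24 h and 6 of 9 at 72 h. Zbtb20 (NM_181058, chr16:42875881-43642602, plus strand), a zinc finger repressor, ranged from 0 to 2.11 scaled RPKM (median 0.929) in KD 24 h and from 5.12 to 6.33 (median 6.16) in NC 24 h. At 72 h it ranged from 0.897 to 3.15 (median 2.15) in KD, against 8.47, 7.04, 8.16, 7.35 and 5.49 in NC. It was the lowest of the listed genes at 24 h with a log2 fold change of -3.09 ± 0.62 (adjusted p = 0.00359), and at 72 h the value was -1.80 ± 0.26 (adjusted p = 0.000347), without overlap at either time. The rank at 24 h depends on the measure, since mean RPKM in KD was 17.1% of NC for Zbtb20, 16.3% for Nav2, 16.4% for Magi1 and 16.7% for Pard3. Of the other entries of Zbtb20, 15 of 16 were lower at 24 h and 14 of 15 at 72 h.

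Atxn1, a corepressor, was deeper with 179 reads per library and held 0.369 to 1.97 scaled RPKM (median 1.03) in KD 24 h against 5.22 to 7.19 (median 6.59) in NC 24 h. At 72 h the KD libraries held 1.21 to 2.35 (median 2.01) and the NC samples 9.40, 9.66, 8.02, 7.49 and 8.37. The gap amounted to -2.48 ± 0.31 (adjusted p = 0.000201) and -2.16 ± 0.20 (adjusted p = 9.65e-06) on the log2 scale. The RNA-binding protein gene Rbms3 held 0.522 to 1.32 (median 0.762) in KD 24 h against 2.92 to 4.15 (median 3.67) in NC 24 h, and 1.00 to 1.84 (median 1.21) in KD 72 h against 7.56, 9.14, 7.74, 12.2 and 6.83 in NC 72 h. Its log2 fold changes were -2.0 ± 0.25 (adjusted p = 0.000182) and -2.66 ± 0.21 (adjusted p = 3.78e-06), again without overlap. Sox5, a factor of the SOX family, reached the filter limit in 0 of 6 KD libraries and in every NC sample at both times, so that it entered through NC, with 0 to 0.301 (median 0.2) against 0.422 to 0.809 (median 0.564) at 24 h and no overlap at either time. The log2 fold changes of Sox5 were -1.37 ± 0.33 (adjusted p = 0.0104) and -1.57 ± 0.35 (adjusted p = 0.00568). Its relative Sox6 was not fitted in either comparison and held 34 reads in KD and 57 in NC at 24 h, and 24 in KD and 38 in NC at 72 h.

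Smyd3, a lysine methyltransferase gene, was lower by -1.22 ± 0.37 at 24 h (adjusted p = 0.0301) and -1.03 ± 0.31 at 72 h (adjusted p = 0.0278). Auts2, whose product acts in transcription with Polycomb proteins, was lower at 24 h (-1.09 ± 0.37, adjusted p = 0.0443) and differed by -0.53 ± 0.28 at 72 h (adjusted p = 0.199). Tcf4, a basic helix-loop-helix factor, showed the smallest change that passed at either time. It went from 15.3 to 17.1 scaled RPKM (median 15.8) in NC 24 h to 9.68 to 12.6 (median 11.6) in KD 24 h, and in KD 72 h it held 10.9 to 15.1 (median 13.3) against 16.1, 16.6, 19.2, 20.3 and 16.6 in NC 72 h. The groups did not overlap, the log2 fold changes were -0.51 ± 0.12 (adjusted p = 0.00912) and -0.43 ± 0.13 (adjusted p = 0.0232), and the second rose to an adjusted p of up to 0.0967 with 1 replicate number left out. Of the other entries of Tcf4, 12 of 23 were lower at 24 h and 8 of 24 at 72 h, where the highest stood at 0.15.

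Foxp1 and Rora were the exceptions in this group. Foxp1 (NM_001197322, chr6:98925338-99522721, minus strand), a forkhead factor, lay between 4.66 and 5.90 scaled RPKM (median 4.91) in KD 24 h and between 3.79 and 5.76 (median 4.37) in NC 24 h. At 72 h it lay between 5.17 and 9.67 (median 6.58) in KD, with 6.72, 7.20, 6.61, 6.87 and 7.43 in NC. The groups overlapped at both times, with log2 fold changes of 0.16 ± 0.17 (adjusted p = 0.503) and -0.07 ± 0.17 (adjusted p = 0.806), and the sign of the second turned to 0.18 without scaling. None of its 13 other fitted entries at 24 h and 15 at 72 h passed, and their log2 fold changes ran from -0.38 to 0.62 and from -0.54 to 0.32. Foxp1 has an annotated span of 597 kb, close to the 599 kb of Lpp and the 608 kb of Magi1, which fell. Their shortest annotated coding transcripts span 11.4 kb for Foxp1, 258 kb for Lpp and 7.24 kb for Magi1. Which transcripts gave the reads was not tested. Rora, a nuclear receptor gene of 734 kb, was fitted at 72 h alone, where KD held 1.19 to 2.90 (median 1.84) and NC held 1.62, 1.94, 3.49, 3.51 and 0.907. The groups overlapped and the log2 fold change was -0.16 ± 0.34 (adjusted p = 0.774), which turned to 0.07 without scaling. At 24 h Rora held 55 reads in KD and 46 in NC.

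Of the 8 genes for signalling, trafficking and cytoskeleton, 7 were fitted and 5 were lower at each time. Dock1, an activator of Rac with 300 reads per library, ranged from 2.44 to 7.68 scaled RPKM (median 2.66) in KD 24 h and from 14.8 to 20.7 (median 17.1) in NC 24 h. It ranged from 4.32 to 9.41 (median 7.80) in KD 72 h, against 15.4, 17.7, 16.8, 18.5 and 18.2 in NC 72 h. Both differences were free of overlap, at -2.27 ± 0.27 (adjusted p = 0.000149) and -1.34 ± 0.20 (adjusted p = 0.00035). Nav2, a cytoskeletal protein of growing neurites, moved by a similar amount at 24 h (-2.18 ± 0.29, adjusted p = 0.000314) and by -0.98 ± 0.24 at 72 h (adjusted p = 0.011). Exoc4, an exocyst subunit, was lower at 24 h (-1.31 ± 0.38, adjusted p = 0.0235) and differed by -0.76 ± 0.29 at 72 h (adjusted p = 0.0758).

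The endosomal regulator gene Tbc1d5 was lower by -1.09 ± 0.33 (adjusted p = 0.0284) and -0.85 ± 0.27 (adjusted p = 0.0339), and the lipid transfer protein gene Vps13b by -0.80 ± 0.27 (adjusted p = 0.0433) and -1.24 ± 0.35 (adjusted p = 0.0195). The 1 other fitted entry of Tbc1d5 did not pass at 24 h (-0.81) or at 72 h (-0.62). Gphn, which encodes gephyrin, a receptor anchor that also makes the molybdenum cofactor, differed by -0.59 ± 0.21 at 24 h (adjusted p = 0.0541) and was lower by -0.67 ± 0.22 at 72 h (adjusted p = 0.0441). A cDNA entry of Gphn, AK079555, was the single other entry of any listed gene that was higher, by 1.49 ± 0.43 at 72 h (adjusted p = 0.0226), and it was named after its value was seen. Mast4, a kinase gene of 602 kb, held 0.193 to 0.489 (median 0.401) in KD 24 h and 0.226 to 0.515 (median 0.363) in NC 24 h. In KD 72 h it held 0.313 to 0.950 (median 0.508), against 0.714, 0.355, 0.539, 0.433 and 0.595 in NC 72 h. The groups overlapped entirely, with log2 fold changes of 0.01 ± 0.27 and -0.03 ± 0.30 whose signs varied between settings. Prkg1, a cGMP-dependent kinase gene, was not fitted and held 2 reads in KD and 17 in NC at 24 h, and 4 in KD and 24 in NC at 72 h.

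The 7 genes for enzymes, mitochondria and genome maintenance included 4 that were fitted, and all 4 of these were lower at both times. Wwox (NM_019573, chr8:114439655-115352708, plus strand), an oxidoreductase gene at a fragile site, held 0.286 to 1.59 scaled RPKM (median 0.740) in KD 24 h against 1.90 to 3.94 (median 2.38) in NC 24 h. At 72 h the KD libraries held 0 to 0.551 (median 0.108) and the NC samples 2.71, 1.81, 3.41, 2.16 and 3.32. The groups were apart at both times, and the log2 fold changes were -1.69 ± 0.35 (adjusted p = 0.00445) and -3.68 ± 0.51 (adjusted p = 0.000226), the second being the lowest fitted value at 72 h. Wwox reached the filter limit in 0 of 6 KD 72 h libraries, with 11 reads in all, and in 5 of 5 NC 72 h samples, and Immp2l in 1 of 6 and 5 of 5, so both entered the fit mainly through NC. At 24 h Immp2l reached the limit in 1 of 6 KD and 6 of 6 NC libraries. Immp2l (NM_053122, chr12:41024090-41955588, plus strand), a peptidase of the inner mitochondrial membrane, held 1.23 to 3.59 (median 2.67) in KD 24 h against 4.33 to 11.7 (median 8.62) in NC 24 h. In KD 72 h it held 0.339 to 4.11 (median 1.74), against 12.8, 14.0, 11.7, 11.0 and 16.6 in NC 72 h. The log2 fold changes of Immp2l were -1.61 ± 0.31 (adjusted p = 0.0028) and -2.98 ± 0.44 (adjusted p = 0.000358), without overlap, at a mean of 18.8 reads per library.

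Msra, which repairs oxidised methionine, was the most abundant of the listed genes with a mean of 39.9 RPKM and 186 reads per library. Its scaled RPKM of 13.1 to 25.4 (median 19.6) in KD 24 h stood against 49.0 to 73.3 (median 64.5) in NC 24 h, and 11.4 to 14.8 (median 13.4) in KD 72 h stood against 91.0, 77.5, 50.5, 49.6 and 80.0 in NC 72 h. The differences of -1.67 ± 0.17 (adjusted p = 6.08e-05) and -2.35 ± 0.16 (adjusted p = 1.38e-06) had the smallest adjusted p of the listed genes at each time. Fto, an RNA demethylase gene known for its link to obesity, was lower by -1.80 ± 0.27 (adjusted p = 0.000621) and -1.83 ± 0.24 (adjusted p = 0.000159), at 355 kb one of the shorter genes listed. Fhit, a hydrolase gene with a span of 1612 kb at a fragile site, was not fitted and held 11 reads in KD and 55 in NC at 24 h and 4 in KD and 36 in NC at 72 h. The deposited RPKM of Fhit reached 0.836 in KD 24 h and started at 0.747 in NC 24 h, so those groups overlapped slightly. Rad51b, a gene of homologous recombination, held 7 reads in KD and 16 in NC at 24 h and 14 in KD and 52 in NC at 72 h. Macrod2, which removes ADP-ribose from proteins, was not fitted and had a median deposited RPKM of 0.344 in KD and 0.715 in NC at 24 h and of 0.426 in KD and 0.578 in NC at 72 h. Its groups overlapped at both times, and 1 KD 72 h library stood at 2.36.

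**Figure D2:**
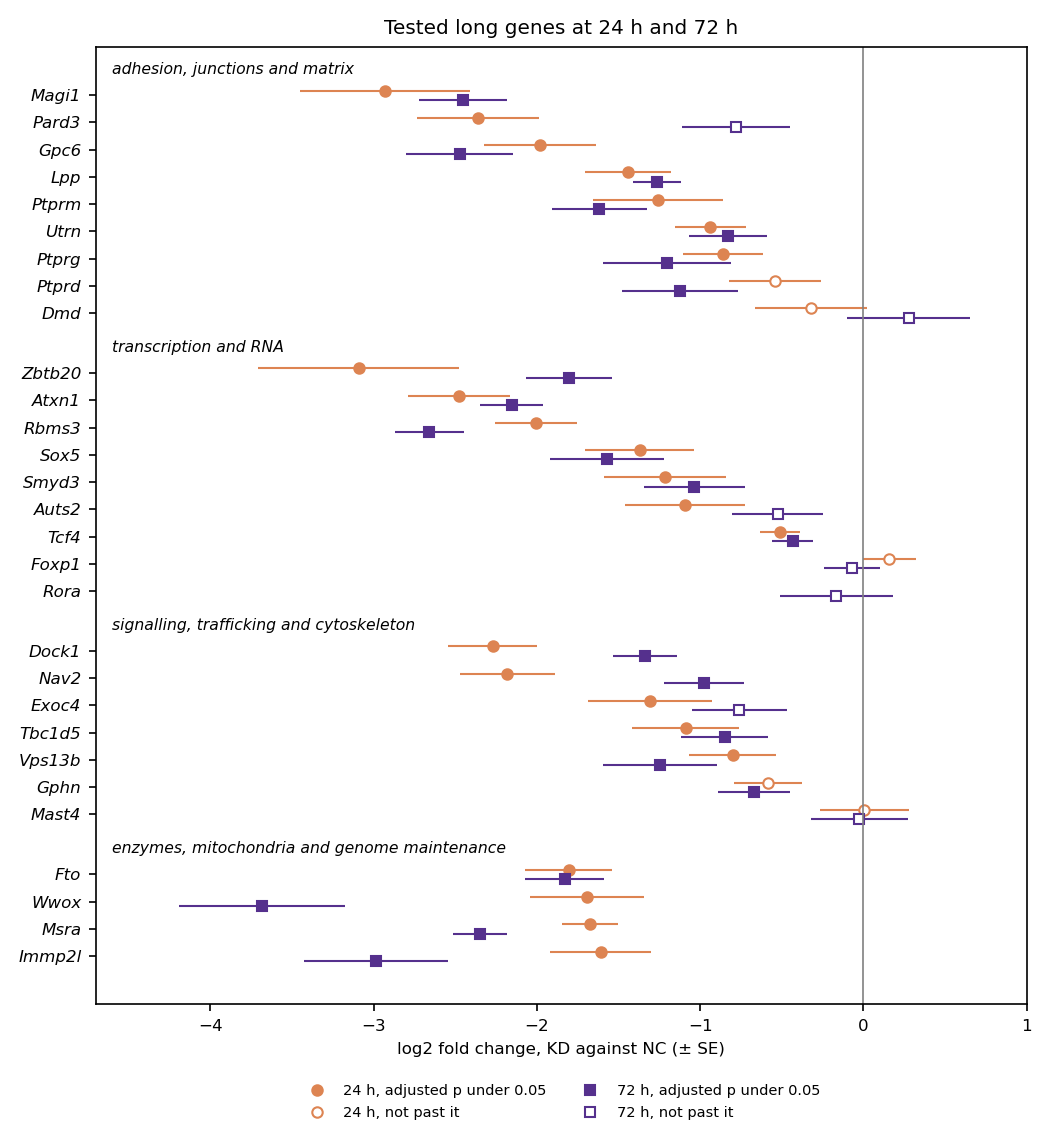
Log2 fold change of KD against NC ± SE for the 29 listed genes fitted at 72 h (squares) and the 28 fitted at 24 h (circles), grouped by role, with filled marks where the adjusted p of limma was under 0.05. Zbtb20 is lowest at 24 h (-3.09), Wwox is lowest at 72 h (-3.68), and Foxp1, Mast4, Rora and Dmd lie near 0.

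The interaction of knockdown and time passed in 0 of 31 genes, against 0.252% of all genes in either direction, with 6 of the 31 at an unadjusted p under 0.05 and a smallest adjusted p of 0.180 (limma), and voom passed 0 as well. Over all entries fitted, 6978 of 59266 had an unadjusted p under 0.05 for the interaction. The 6 listed genes at that level were Nav2, Wwox, Pard3, Msra, Dock1 and Immp2l. Wwox, Immp2l and Msra were lower by more at 72 h, with interactions of -1.95 ± 0.64, -1.36 ± 0.56 and -0.66 ± 0.25, and Pard3, Nav2 and Dock1 were lower by more at 24 h, with interactions of 1.60 ± 0.53, 1.22 ± 0.38 and 0.95 ± 0.35. None of these differences between the times passed the adjusted threshold.

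The NC groups give the change over the same period without the Ctcflos gapmer. From NC 24 h to NC 72 h, whose samples are also the controls of the 2 knockdown comparisons, 0 of 30 fitted genes were lower and 2 were higher (limma), against 4.44% and 5.16% of all genes tested. An unadjusted p under 0.05 was reached by 6 of the 30 and by 2326 of all 9805 genes tested. Voom called 0 lower and 5 higher. The 2 that limma called higher were Rbms3, by 1.12 ± 0.18 (adjusted p = 0.000994), and Foxp1, by 0.54 ± 0.15 (adjusted p = 0.0388). The median log2 fold change of the 30 was 0.09. Rbms3 thus stood higher in NC at 72 h and lower in KD at both times.

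Other entries of the same symbols were read as a check on the choice of 1 entry per gene, though they overlap each other and can share reads. Of 157 other entries fitted at 24 h, from 27 of the genes, 101 were lower and 0 higher, and their median was -1.31, whereas 11.6% of all entries were lower and 11.1% higher. At 72 h, 99 of 173 were lower and 1 was higher, with a median of -1.05, whereas 12.1% of all entries were lower and 10.4% higher. Rora had 8 other entries fitted at 24 h and 9 at 72 h, none of which passed, with log2 fold changes of -0.08 to 0.16 and of -0.46 to -0.12. Pard3 had 5 of 6 other entries lower at 24 h and none of 6 at 72 h.

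Gene length was then examined outside the list, in genes found from the annotation and not by name. Of the 536 other genes of 300 kb or more, 139 were fitted at 24 h, and 84 of them (60.4%) were lower and 2 were higher, and the median of their log2 fold changes was -1.16. At 72 h, 67 of 150 (44.7%) were lower and 3 higher, with a median of -0.75. Every KD library lay below every NC library in 65 of the 139 and in 50 of the 150, against 7.18% and 8.42% of all genes tested. These medians stand beside -1.34 and -1.20 for the listed genes, and no test of a difference was made, because the list was chosen.

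With the listed genes left out, the median log2 fold change at 24 h was 0.07 for 2471 genes under 10 kb, 0.11 for 3267 genes of 10 to 30 kb, -0.04 for 2814 genes of 30 to 100 kb, -0.42 for 981 genes of 100 to 300 kb and -1.16 for the 139 genes of 300 kb or more. The share lower in KD went from 7.20% in the shortest class to 31.5% at 100 to 300 kb and 60.4% in the longest. At 72 h the medians were 0.05, 0.08, -0.01, -0.25 and -0.75 in the same order. From NC 24 h to NC 72 h the medians of the 5 classes lay between 0.01 and 0.05. Just outside the limit, 201 genes of 200 to 300 kb had a median of -0.75 at 24 h, with 98 lower and 9 higher, and 220 such genes had a median of -0.49 at 72 h, with 79 lower and 18 higher. Within the list, span and fold change showed no ordering, with a Spearman rho of 0.01 over 28 genes at 24 h and -0.08 over 29 at 72 h, which share libraries and are no replicates.

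**Figure D3:**
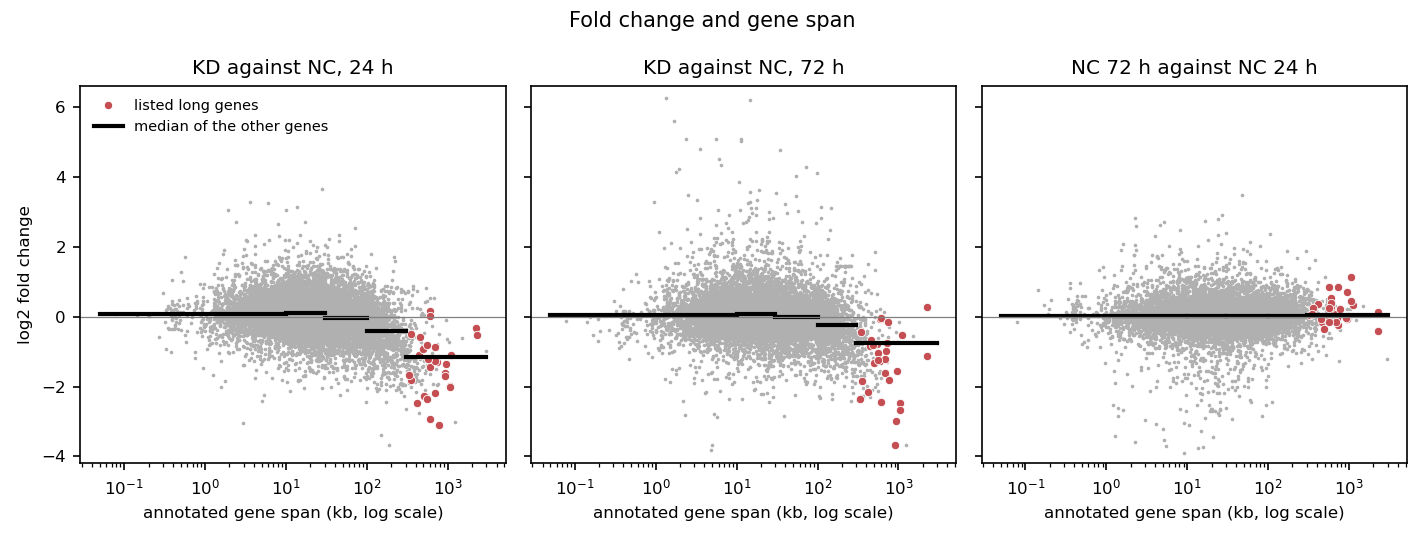
Log2 fold change of each fitted gene against its annotated span (kb, log axis) for KD against NC at 24 h and 72 h and for NC 72 h against NC 24 h, with listed genes in red, other genes in grey and black lines for the median of the other genes in 5 span classes. The line falls to -1.16 at 24 h and -0.75 at 72 h in the class of 300 kb or more and stays near 0 in the comparison of the NC groups.

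The span classes were also read within classes of level and of entry length. Among other genes with a mean of under 2 RPKM, the median of the 73 genes of 300 kb or more was -1.16 at 24 h, against 0.18 for genes under 10 kb. At 2 to 5 RPKM the median of 30 long genes was -0.93, and at 5 to 20 RPKM that of 28 was -1.20. The class of 20 RPKM or more held 8 long genes with a median of -1.21, too few to rest on. Split by the length of the entry, the medians of long genes at 24 h were -1.36 under 2000 bases (18 genes), -1.20 from 2000 to 5000 bases (52 genes) and -0.998 above (69 genes). At 72 h the 3 lower level classes gave -0.74, -0.64 and -0.83. These classes, which were added after the data were seen, hold genes that passed the filter.

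**Figure D4:**
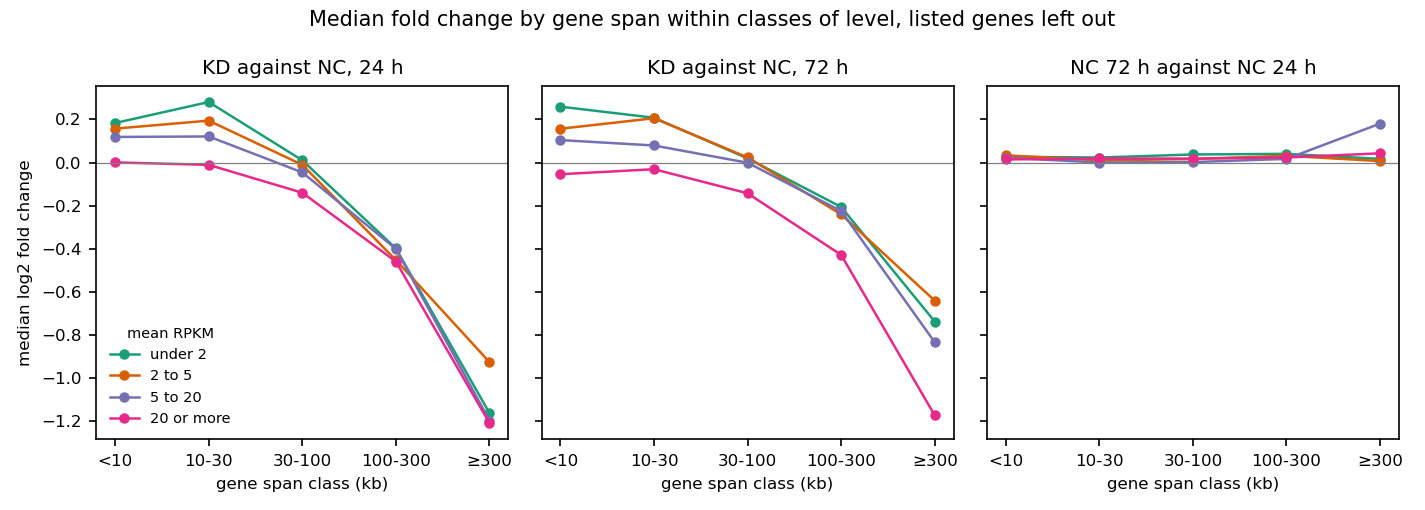
Median log2 fold change of genes that are not on the list, by class of gene span (kb) and by class of mean RPKM (colours), for KD against NC at 24 h and 72 h and for NC 72 h against NC 24 h. In both knockdown comparisons every level class is lowest at 300 kb or more (-0.93 to -1.21 at 24 h, with 8 genes in the class of 20 RPKM or more), and in the comparison of the NC groups the class medians stay at or under 0.18.

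After the mean of each group was taken out, the 24 libraries fell into a cluster of 16 and one of 8, which held 2 libraries of each group, a division absent from the labels. In the larger cluster alone, 20 of 27 listed genes were lower at 24 h with a median of -1.63, and 18 of 29 at 72 h with a median of -1.18. In the smaller cluster alone, with 2 libraries a group, 7 of 30 were lower at 24 h with a median of -0.83 and 27 of 30 were below 0, and 12 of 29 were lower at 72 h with a median of -0.99 and 28 of 29 were below 0. Most of the listed genes thus had a negative fold change within both clusters, and fewer were called in the smaller one.

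A list of 39 genes known for transcriptional elongation, its termination or the transcription of long genes was read beside the members, since these genes act on long templates. At each time 38 were fitted and 0 were lower, against 12.3% of all genes tested at 24 h and 12.5% at 72 h. Of the 38, 5 were higher at 24 h and 4 at 72 h (limma, adjusted as above), shares close to the 11.7% and 11.1% of all genes. The medians of the 38 were 0.29 and 0.24. At an unadjusted p under 0.05, 1 was lower and 13 higher at 24 h and 0 lower and 11 higher at 72 h, and voom called 0 lower at both times and 6 and 7 higher. Over all genes tested, 3763 of 9700 at 24 h and 3689 of 10145 at 72 h had an unadjusted p under 0.05 in either direction. The 5 at 24 h were Matr3, Cdk9, Ccnk, Paf1 and Setd2, and the 4 at 72 h were Ccnk, Supt5, Ssrp1 and Ell2. Ccnk, the cyclin partner of Cdk12 and Cdk13, was higher at both times, by 0.88 ± 0.23 (adjusted p = 0.0151) and 0.86 ± 0.17 (adjusted p = 0.00239). Their part in the levels of the long genes was not tested.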

How the data were processed

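RNA of 24 samples of primary brite adipocytes was reverse transcribed with barcoded oligo-dT primers and sequenced in pools (BRB-seq). The sample titles gave each library's group and replicate number. The authors aligned the tags to NCBI reference sequences in the Genomatix suite and deposited RPKM for 168326 transcript entries, written with a decimal comma. Version, genome build and strand handling are not given in the sources used here, so reads of overlapping or antisense genes may be counted together. The authors' deposited RPKM are not counts, so limma 3.58.1 (R 4.3.3) on the log2 scale was the main test. Mapped reads per library and reads per entry were recovered from the RPKM steps. Between 93.0% and 93.7% of low values were whole within 0.02 of a step, where NC 72 h replicate 6 had 72.6% whole and 20.9% midway between steps, both counted, and its depth was taken from the larger step.

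An entry was tested if enough samples to fill the smaller group reached what 10 reads are worth in the library of median depth, and if it had 15 reads in total. Deposited RPKM were scaled by a trimmed mean of log ratios (30% and 5% trimmed) and taken as log2(scaled RPKM + 0.1), which understates the change of low genes. Models had an intensity trend, and a call was a Benjamini-Hochberg adjusted p under 0.05 over all entries tested, two-sided. The fitting script was tested on simulated data. Without scaling, the median difference over all entries was 0.05 at 24 h and 0.25 at 72 h. Spans were matched by symbol to GENCODE M21, and read numbers carry counting error only.

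The members, the other lists and the roles were chosen with earlier results of these data known. Genes described by sample were the 5 fitted members with the lowest and the 5 with the highest log2 fold change at each time, the related members (Magi1 and Magi2, Dmd and Utrn, Pard3 and Pard3b, Sox5 and Sox6, and the Ptpr genes) and any member that passed the interaction. Members named with values beyond that rule (such as Lpp, Fto, Smyd3, Auts2, Nav2, Exoc4, Tbc1d5 and Vps13b) were chosen after their values were seen. Alternatives were pseudocounts of 0.01 and 1, no filter, no scaling, 1 entry per gene, the highest entry of any kind, voom on recovered reads, the replicate block, libraries kept separate, each cluster alone, other limits on span and each replicate number left out.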

Additional observations from a re-analysis of the deposited data

Results flagged for a closer look

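Of 74 groups of 5 or 6 values examined for the members named by rule, 2 held a library far from the rest, and chance flags about 1 in 20 groups. Foxp1, the forkhead factor gene that did not fall, stood at 5.90 scaled RPKM in KD 24 h replicate 2, where the nearest other KD library held 5.10. Mast4, a kinase gene without a difference between groups, stood at 0.950 in KD 72 h replicate 2, where the nearest other held 0.548.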

How the results depend on the processing

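Listed genes kept their median below 0 in both knockdown comparisons under every alternative run, and 0 were higher. At 24 h, beside 23 of 28 in the report, 7 of 30 fitted were lower in the smaller cluster alone. At 72 h, beside 22 of 29, 14 of 38 were lower without the filter, 13 of 29 with the replicate block and 12 of 29 in the smaller cluster. The median at 24 h was -0.71 with a pseudocount of 1 and -0.83 in the smaller cluster, and the median at 72 h was -0.54 with a pseudocount of 1. Genes higher in NC at 72 h, 2 in the report, numbered 1 without the filter, 1 with the replicate block, 1 with the highest entry of any kind, 5 by voom, and 1 to 2 with 1 replicate number left out. Other long genes lower in KD numbered 182 at 24 h and 146 at 72 h from 200 kb on, and 19 and 17 from 500 kb on, because the limit changes how many genes are counted. With 1 replicate number left out, 16 to 21 listed genes were lower at 24 h and 15 to 20 at 72 h.

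Same-numbered libraries did not deviate together, with a mean correlation of -0.05 at 24 h and 0.02 at 72 h, so the numbers do not pair the libraries. With the replicate block, 19 listed genes were lower at 24 h and 13 at 72 h, with medians of -1.34 and -1.17.

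Signs turned only in members near 0, and the cause was not tested. Dmd at 72 h was -0.63 in the smaller cluster. Foxp1 at 72 h was 0.18 without scaling, 0.064 in the larger cluster and 0.25 with the highest entry of any kind, and it ran from -0.19 to 0.020 with 1 replicate number left out. Mast4 at 24 h was -0.0010 with a pseudocount of 0.01, -0.010 without the filter, -0.00086 with 1 entry per gene, -0.079 by voom and -0.047 in the larger cluster, and it ran from -0.15 to 0.22 with 1 replicate number left out. Mast4 at 72 h was 0.18 without scaling, 0.054 by voom, 0.057 with libraries kept separate and 0.070 in the smaller cluster, and it ran from -0.13 to 0.19. Rora at 72 h was 0.073 without scaling and 0.32 in the larger cluster, and it ran from -0.43 to 0.13. Depth limits 9 members that could not be fitted in either comparison, since 3 reads of a transcript of 2 kb are worth 0.277 to 1.08 RPKM.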
